A study of Mus musculus with 26 samples.

Results

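Expression in Group3 mouse medulloblastomas that had received pemetrexed and gemcitabine together was set against expression in untreated Group3 tumors. The comparison took 5 arrays chosen by their labels, 3 of the combination (titled pemetrexed plus gemcitabine) and 2 untreated, from the 26 arrays of the series. All 5 carry the title code mmm, as do the tumors given pemetrexed alone (2 arrays) or gemcitabine alone (3 arrays), whose values are shown beside them. A second title code, dka, marks 12 arrays that include 3 more untreated tumors. The means of the dka arrays were not used in the comparison, but all 26 arrays entered the estimate of spread behind the p-values. Treated and untreated tumors share the strain C57BL/6 and the genotype Trp53-/-, Cdkn2c-/- with Myc. The untreated tumors are therefore no wild-type control: by their labels all groups lack the genes of p53 and of the cell cycle inhibitor p18Ink4c. The labels give no dose, schedule, time of sampling, age, promoter for Myc, or mouse for any array, and do not say whether tumors were pooled or whether arrays came from separate mice. The p-values therefore measure only the spread between arrays, which may be technical.

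Medulloblastoma is a tumor of the cerebellum, and in its Group 3 form MYC is often highly expressed. Pemetrexed is an antifolate that inhibits thymidylate synthase and purine synthesis, and gemcitabine is a deoxycytidine analogue that is phosphorylated in the cell, blocks ribonucleotide reductase and is built into DNA. Both act on cells in S phase. A tumor growing in the brain also holds neurons, glia, vessels and immune cells, so a whole-tumor array reads the mixture; fewer cells of a type and less RNA per cell cannot be told apart.

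Values are the deposited log2 intensities, and every difference below is on the log2 scale, combination minus untreated, with its standard error (SE). For each of 17097 genes the brightest probe set with 1 gene symbol was read. Except in 1 neurosphere array, values of mmm arrays ran further down and up than those of dka arrays, so sizes are not compared across codes. The SD over genes of the difference between replicates was 0.355 for the untreated pair and 0.497 to 0.575 for pairs of combination tumors. Myc (8.53 and 8.71 in untreated tumors, then 8.68, 9.13 and 8.35 in combination replicates 1 to 3) differed by 0.10 (SE 0.55). Mycn, a close relative of Myc, differed by 0.02 (SE 0.37). Cdkn2c differed by 0.17 (SE 0.17); where its probe set lies relative to the deletion was not examined.

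Of 17097 genes, 9 (0.0526%) rose and 4 (0.0234%) fell in the combination tumors at a limma adjusted p under 0.05. The rises were Entpd2, Gli1, Septin8, Pald1, Svil, Mybpc1, Dlc1, Luc7l and the predicted gene 2610311E24Rik, and the falls were Slc6a20a, Cdh9, Npy5r and Pla2g4e. Their adjusted p values lay close under the threshold, between 0.0446 and 0.0463, with rises of 2.15-fold to 15.3-fold and falls of 1.99-fold to 6.18-fold. At an unadjusted p under 0.05, 634 genes (3.71%) were higher and 716 (4.19%) lower. All 3 combination tumors lay above both untreated tumors for 3792 genes (22.2%) and below both for 2804 (16.4%), which is the background for each count of members below. The median difference over all genes was 0.03. These calls depend on which arrays share the fit: with only the 10 mmm tumors limma called 3 genes, none of them among these 13, and with only the 5 arrays compared it called 0 genes, although 1376 were higher and 1207 lower at an unadjusted p under 0.05.

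Markers of mature neurons read higher in the untreated tumors than in most treated ones. Which cells carried that signal was not tested. The mean over 18 markers of mature neurons was 8.63 and 8.37 in the untreated tumors and 6.03, 7.74 and 7.12 in combination replicates 1 to 3. The combination tumors all lay below the untreated pair. With pemetrexed alone the same mean was 6.48 and 7.53. With gemcitabine alone it was 6.77, 5.39 and 9.10, so gemcitabine replicate 3 read as much neuron signal as an untreated tumor.

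Of the 18 neuron markers 11 lay below both untreated tumors in every combination tumor and none above, their median difference was -1.56, and none passed the adjusted threshold. The summed linear intensity of the list ranged from 20712 to 31693 in the untreated and from 2397 to 11814 in the combination tumors. No marker is at 0, since log2 intensities have a floor and no true zero. Gad1, an enzyme that makes the inhibitory transmitter GABA, read 13.57 and 12.59 in untreated and 8.22, 10.57 and 11.47 in combination tumors (difference -2.99, SE 1.37, limma adjusted p 0.616). Gad2, the second such enzyme, differed by -1.55 (SE 0.34, limma adjusted p 0.144). Neurosphere arrays of the same code, which hold cultured cells labelled with the same genotype, gave neuron list means of 4.26 to 5.55.

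Myelin and glial markers were lower too, with more overlap. The mean of 14 oligodendrocyte markers was 8.57 and 6.96 in untreated and 5.37, 7.51 and 6.69 in combination tumors, so the groups overlapped; the median difference was -1.27 and no member was separated. Without untreated replicate 1, untreated replicate 2 or combination replicate 1 that median was -0.38, -2.18 or -0.68. The summed intensity of that list ran from 10749 to 35035 in untreated and from 3926 to 26840 in combination tumors. The mean of 14 astrocyte markers was 9.33 and 8.73 in untreated and 7.09, 8.52 and 8.44 in combination tumors (median difference -1.07, 4 members below and none above; summed intensity 15889 to 26017 and 7746 to 17960). The astrocyte median was -0.46 without combination replicate 1 and -0.58 without untreated replicate 1. Neurosphere means for astrocyte markers reached 8.69, so this list is not particular to brain tissue. The mean of the neuron, oligodendrocyte and astrocyte lists, used below as the brain score, was 8.82 and 8.05 in the untreated tumors and 6.15, 7.90 and 7.39 with both drugs. Combination replicate 2 and untreated replicate 2 thus had almost the same score. Its parts differed in opposite directions, however. The neuron mean was 8.37 in untreated and 7.74 in combination replicate 2, and the oligodendrocyte mean was 6.96 and 7.51.

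**Figure D1:**
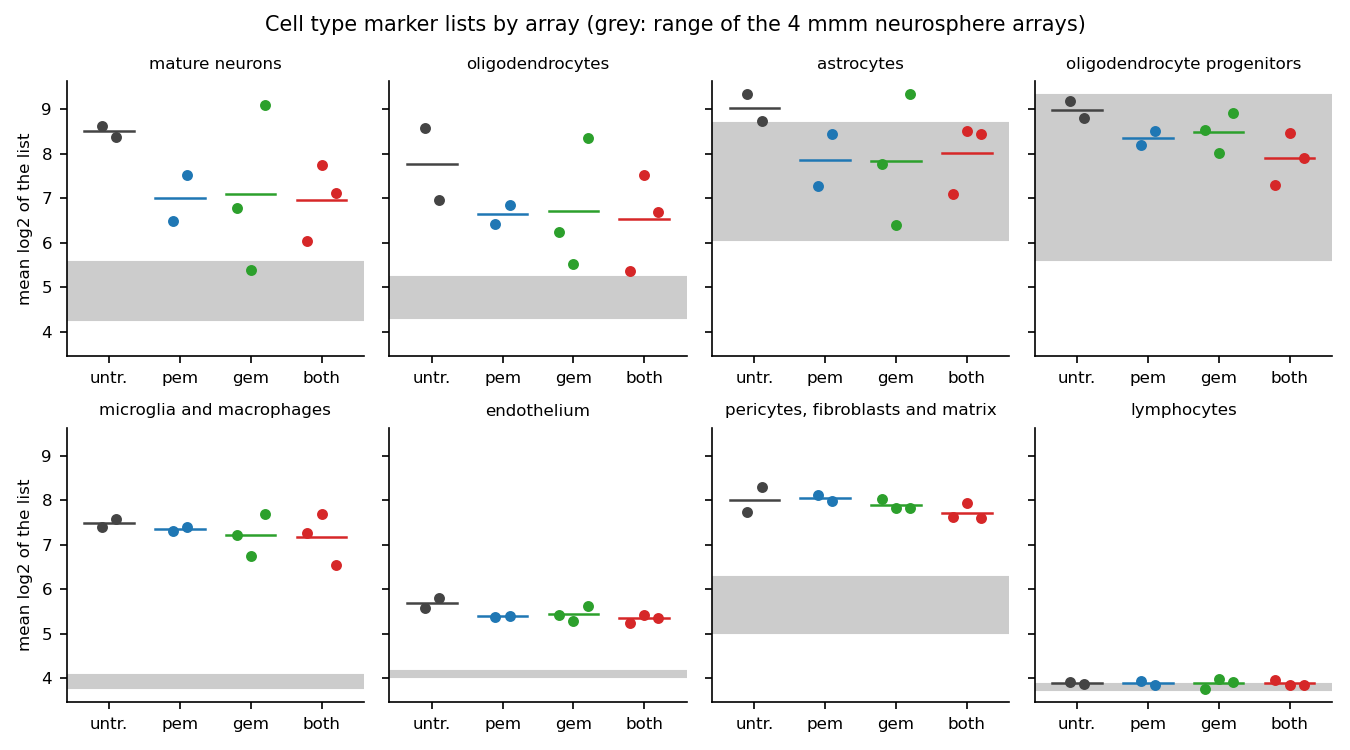
Mean log2 intensity of 8 cell type marker lists on each array of the 10 mmm tumors (points; lines are group means) for untreated, pemetrexed, gemcitabine and combined treatment, with the range of the 4 mmm neurosphere arrays in grey. The neuron means of the 3 combination tumors lie below 8.37, the lower untreated tumor, while the lymphocyte list stays near the neurosphere range in all 10 tumors.

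To allow for this, the 10 mmm tumors were also fitted with the brain score as a covariate. In that fit limma called 0 genes, with 928 higher and 610 lower at an unadjusted p under 0.05. Each of the 13 called genes kept its sign, and the adjusted p values for them ran from 0.251 to 0.479. The score differs with treatment and rests on 10 arrays, so the fit cannot separate drug from brain content fully. The difference between combination replicate 2 and untreated replicate 2, the pair with nearly equal scores, is given below for Entpd2. That pair is not matched in neuron or oligodendrocyte signal taken alone. For Cntn2 and Olig2 the readings of that pair are given.

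Entpd2 showed the largest rise among the called genes. It encodes a cell-surface enzyme that splits ATP outside the cell, and in brain it is a marker of neural stem cells and some astrocytes. It read 5.34 and 4.75 in the untreated tumors and 9.08, 7.63 and 10.22 in combination replicates 1 to 3, with no overlap. The difference was 3.93 (SE 0.69), a 15.3-fold rise, with a limma adjusted p of 0.0446. With pemetrexed alone it read 8.03 and 5.73, and with gemcitabine alone 6.30, 5.97 and 7.91, all above both untreated tumors. The difference was 4.22 with the brain score as a covariate, and 2.88 between the replicates 2 of nearly equal score.

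Gli1, a transcription factor switched on by sonic hedgehog signalling and a standard readout of that pathway, rose next most. It read 2.60 and 2.42 in untreated and 6.63, 4.89 and 6.87 in combination tumors, a difference of 3.62 (SE 0.64; 12.3-fold; limma adjusted p 0.0446). The single drugs gave 4.63 and 2.99 for pemetrexed and 3.60, 3.38 and 3.63 for gemcitabine. Every treated tumor was above both untreated ones, and the combination tumors were above all 5 single-drug tumors. The untreated readings are below the median of an array, so the size of the rise depends on how the low end was scaled. The difference with the brain score as a covariate was 3.36.

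Promoter windows of the called genes were searched for the sequence that GLI proteins are known to bind, since Gli1 is itself among them. RefSeq windows of 300 bases (GRCm38.p6, 250 before and 50 after the start) were matched for 8 of the 13 called genes, 9 windows in all. No window was matched for Gli1 itself, Svil, Luc7l, Dlc1 or 2610311E24Rik, so their promoters were not searched. The consensus GACCACCCA occurs on either strand in 0.253% of 32851 windows, and its last 7 letters, CCACCCA, in 9.3%. Among the 9 windows only Entpd2 held the shorter motif, at bases 71 to 77 counted from the 5′ end and on the opposite strand, and none held the full one. The windows of the 2 largest rises and the 2 largest falls with a single entry are shown, 5′ to 3′ on the gene's strand, with the match in capitals; these letters describe the sequence and do not show binding.
Entpd2, chr2:25395624-25395923, plus strand: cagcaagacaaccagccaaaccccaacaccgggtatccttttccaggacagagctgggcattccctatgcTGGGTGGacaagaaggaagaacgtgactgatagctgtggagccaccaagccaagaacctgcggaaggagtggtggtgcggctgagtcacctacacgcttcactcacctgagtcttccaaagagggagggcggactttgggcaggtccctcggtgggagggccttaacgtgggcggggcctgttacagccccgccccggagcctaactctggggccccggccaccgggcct
Pald1, chr10:61383290-61383589, minus strand: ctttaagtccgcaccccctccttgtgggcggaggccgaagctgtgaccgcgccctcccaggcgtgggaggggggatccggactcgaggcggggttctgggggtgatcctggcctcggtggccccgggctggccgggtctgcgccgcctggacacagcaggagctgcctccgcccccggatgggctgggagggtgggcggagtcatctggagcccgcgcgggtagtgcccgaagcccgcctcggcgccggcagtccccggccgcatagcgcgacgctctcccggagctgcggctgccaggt
Slc6a20a, chr9:123678783-123679082, minus strand: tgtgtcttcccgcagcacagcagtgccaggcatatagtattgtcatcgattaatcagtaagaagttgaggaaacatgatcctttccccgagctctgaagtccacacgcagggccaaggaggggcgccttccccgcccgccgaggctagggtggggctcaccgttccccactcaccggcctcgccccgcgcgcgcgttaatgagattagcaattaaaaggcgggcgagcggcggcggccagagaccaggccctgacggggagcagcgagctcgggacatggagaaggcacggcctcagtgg
Cdh9, chr15:16728665-16728964, plus strand: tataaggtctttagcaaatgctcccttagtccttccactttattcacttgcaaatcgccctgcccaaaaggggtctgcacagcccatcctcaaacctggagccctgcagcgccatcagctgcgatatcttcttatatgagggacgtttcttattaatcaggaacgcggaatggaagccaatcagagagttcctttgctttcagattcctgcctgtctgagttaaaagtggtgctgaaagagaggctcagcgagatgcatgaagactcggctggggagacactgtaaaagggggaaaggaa
The Pald1 window is rich in G and C (74.7% of its bases, with 32 CpG pairs), and the Cdh9 window is not (48.7%, with 8). The windows of Entpd2 and Slc6a20a were alike in G and C, at 62.0% and 62.3%, although Entpd2 rose and Slc6a20a fell.

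The other rises belong to genes of differing function. Septin8, a GTP-binding protein of septin filaments, read 6.61 and 6.64 in untreated and 9.22, 8.51 and 9.86 in combination tumors (difference 2.57, SE 0.48, limma adjusted p 0.0463). Its second probe set differed by only 0.55. Svil, which encodes the actin- and myosin-binding protein supervillin, read 6.57 and 6.54 in untreated and 9.58, 8.50 and 8.41 in combination tumors (difference 2.28, SE 0.43), and its second probe set differed by 1.69. Dlc1 read 3.18 and 3.29 in untreated and 4.25, 4.50 and 4.81 in combination tumors (difference 1.29, SE 0.23), and its second probe set differed by 0.64. The groups did not overlap for any of these 3 genes.

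Pald1, a phosphatase-like protein first studied in vessels, read 6.09 and 6.03 in untreated and 9.25, 7.28 and 8.64 in combination tumors, a difference of 2.33 (SE 0.41). Mybpc1, a myosin-binding protein of slow muscle, read 3.75 and 3.75 in untreated and 6.04, 4.47 and 6.52 in combination tumors (difference 1.93, SE 0.36). As for Dlc1, its untreated readings are below the median of an array, so the size of the rise depends on the low end. Luc7l, a splicing factor related to the U1 snRNP, read 8.98 and 9.01 in untreated and 10.39, 9.75 and 10.15 in combination tumors (difference 1.10, SE 0.20). None of these overlapped between the groups. The 5 probe sets of Luc7l disagreed, with differences from -0.37 to 1.10. The predicted gene 2610311E24Rik, named although outside the naming rule, differed by 1.87 (SE 0.32), but its other probe sets by 0.13 and 0.21.

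Set beside the single drugs, the rises differed in how much each drug alone gave. Svil differed by 1.98 with pemetrexed, 1.80 with gemcitabine and 2.28 with both, and Luc7l by 0.71, 0.97 and 1.10. For Dlc1 the single drugs gave 0.22 and 0.27 against 1.29, and for Mybpc1 0.37 and 0.43 against 1.93. For Pald1 they gave 0.77 and 0.59 against 2.33, and for Septin8 1.14 and 0.59 against 2.57. These comparisons share the 2 untreated tumors, and the difference was largest with both drugs for each of the 9 rises, which were chosen on that contrast.

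The 4 genes that fell encode a transporter, a cadherin, a receptor and a phospholipase. All their readings in combination tumors are below the median of an array, so the sizes of the falls depend on how the low end was scaled. Slc6a20a, a transporter of proline and related amino acids, read 4.79 and 7.04 in untreated and 3.09, 3.17 and 3.60 in combination tumors (difference -2.63, SE 0.42, limma adjusted p 0.0446). Cdh9, a neuronal cadherin, read 5.37 and 7.32 in untreated and 4.11, 3.88 and 4.29 in combination tumors (difference -2.25, SE 0.41). The groups did not overlap, but untreated replicate 2 was far above replicate 1 for both. Leaving out 1 array at a time gave -3.75 to -1.50 for Slc6a20a and -3.22 to -1.27 for Cdh9, the smallest without untreated replicate 2.

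Npy5r, a receptor for neuropeptide Y, read 4.87 and 5.14 in untreated and 3.47, 3.54 and 3.90 in combination tumors (difference -1.37, SE 0.22), while its second probe set differed by -0.19. Pla2g4e, a cytosolic phospholipase A2, read 5.18 and 5.04 in untreated and 3.85, 4.33 and 4.16 in combination tumors (difference -1.0, SE 0.17). Neither gene overlapped between the groups. Pla2g4e was near its untreated level with gemcitabine alone (4.98, 5.10 and 5.0) and low with pemetrexed alone (4.18 and 4.34). The other 3 falls were lower with either drug alone: Slc6a20a by -2.75 and -2.04, Cdh9 by -2.05 and -1.61, and Npy5r by -0.84 and -1.13 for pemetrexed and gemcitabine. With the brain score as a covariate the falls measured -2.33, -2.00, -1.07 and -0.92 for Slc6a20a, Cdh9, Npy5r and Pla2g4e.

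**Figure D2:**
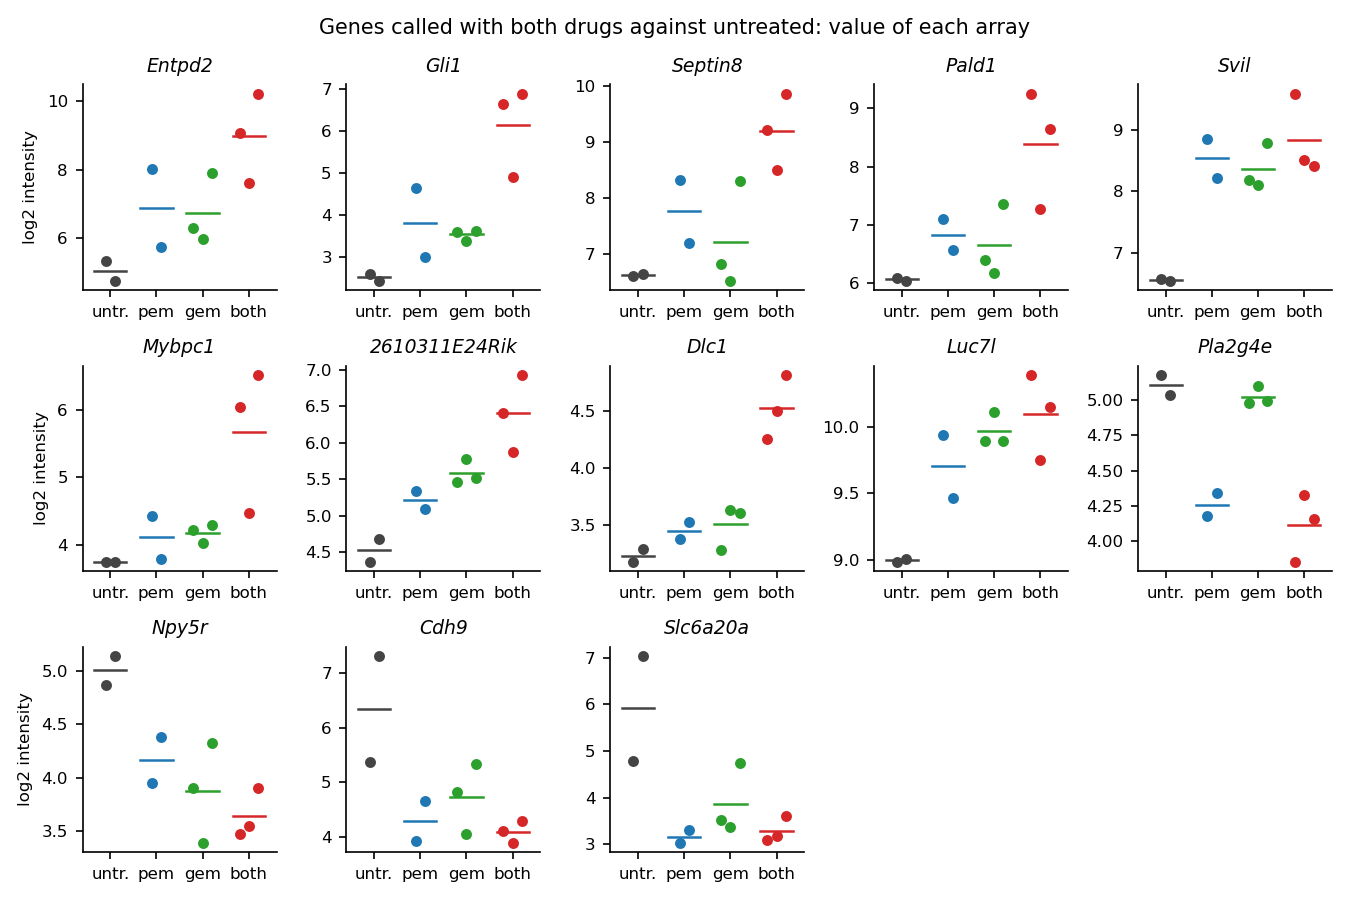
Log2 intensity of the 13 called genes on each of the 10 mmm tumor arrays, untreated (untr.), pemetrexed (pem), gemcitabine (gem) or both drugs; lines are group means and each panel has its own axis. Combination tumors lie above both untreated tumors in the first 9 panels and below both in the last 4.

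The calls depended on single tumors. Without combination replicate 2, which was the lowest of the 3 for 7 of the 9 rises, 26 genes rose and 7 fell, 12 of them among the 13; without combination replicate 1 or 3 limma called 0 genes, with 628 and 1299 at an unadjusted p under 0.05. Without untreated replicate 1 limma called 0 rises and 17 falls (281 and 339 at an unadjusted p under 0.05), 3 of them among the 13, and without untreated replicate 2 it called 0 and 6 (282 and 439), none among the 13. Over the called genes the median SD within groups was 0.651 in the mmm tumors, against 0.290 in the dka arrays that entered the same estimate of spread. Over all genes the same medians were 0.215 and 0.264.

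Genes were also divided with the dka arrays, whose means take no part in the comparison but which entered the estimate of spread. Of 7136 culture-expressed genes, those that dka Group3 neurospheres express at a log2 mean of at least 6 and at most 0.5 below dka tumors, 4 rose (Septin8, Pald1, Svil and Luc7l) and none fell. In this class 2243 genes lay above and 1098 below both untreated tumors in all combination tumors, and the median difference was 0.08. Of 322 tumor-tissue genes, those at least 2 brighter in dka tumors than in neurospheres reading under 6, none was called, 26 lay above and 119 below, and the median difference was -0.48. With the brain score as a covariate that median was -0.17. In the remaining 9639 genes the median was 0.00, with 5 rises and 4 falls.

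**Figure D3:**
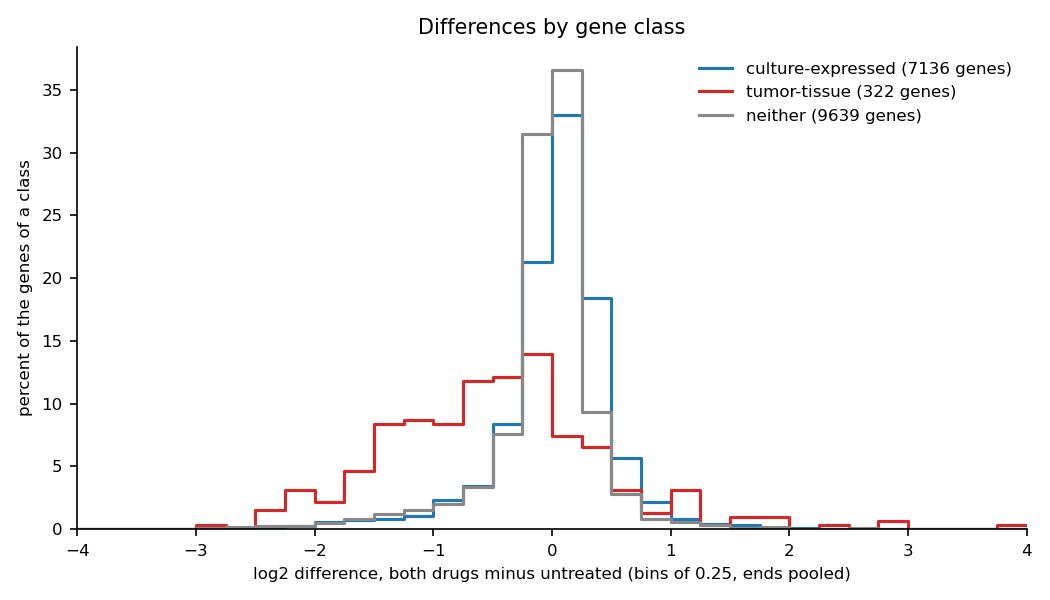
Share of the genes of each class (percent, y axis) by log2 difference between combination and untreated tumors (x axis, bins of 0.25) for 7136 culture-expressed, 322 tumor-tissue and 9639 other genes. The tumor-tissue curve is shifted to negative differences (median -0.48), and the culture-expressed curve lies slightly above 0 (median 0.08).

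Beyond Gli1, some genes of the sonic hedgehog pathway had higher values with both drugs without passing the adjusted threshold. In this pathway the ligand binds the receptor Ptch1 with help from Boc, Smo is released, and GLI factors enter the nucleus; Ptch1, Hhip and Gli1 are themselves targets and report its activity. Of 13 measured genes of the pathway and of granule progenitors, 6 lay above both untreated tumors in all combination tumors and none below, 1 passed, and the median difference was 0.25. The mean was higher for 9 and lower for 4, which were Zic5 (-0.32), Sfrp1 (-0.24), Atoh1 (-0.08) and Barhl1 (-0.06). The median was 0.07 with the brain score and 0.04 with stroma markers as a covariate. The members named here were picked after their values were seen.

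Gli2, the main activator among GLI proteins, read 8.02 and 8.10 in untreated and 10.41, 9.59 and 10.22 in combination tumors (difference 2.01, SE 0.84, limma adjusted p 0.571). Hhip, a decoy that binds the ligand, read 4.04 and 3.91 in untreated and 6.32, 4.46 and 6.10 in combination tumors (1.65, SE 0.74, limma adjusted p 0.604). Ptch1 read 9.10 and 8.60 in untreated and 10.60, 9.60 and 10.81 in combination tumors (1.49, SE 0.84, limma adjusted p 0.693). None of the 3 overlapped, and combination replicate 2 was the lowest of the 3 combination tumors each time. Boc differed by 1.02 (SE 0.40), Ccnd1, the cyclin that granule progenitors need, by 0.78 (SE 0.61), and Smo, which overlapped between the groups, by 0.25 (SE 0.21).

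For Hhip and Ptch1 the single drugs gave values close to the untreated ones. The untreated and single-drug readings of Hhip are all below the median of an array, so its differences depend on the low end. Hhip differed by -0.41 with pemetrexed and -0.04 with gemcitabine alone, and Ptch1 by 0.23 and 0.20. Tested directly, combination minus pemetrexed was 2.06 for Hhip (unadjusted limma p 0.0119) and 2.32 for Gli1 (unadjusted limma p 0.00173), and combination minus gemcitabine was 1.69 for Hhip and 2.60 for Gli1 (unadjusted limma p 0.0197 and 0.000211). For Ptch1 the direct differences were 1.26 and 1.29 (unadjusted limma p 0.15 and 0.102), and for Gli2 0.46 and 0.82 (unadjusted limma p 0.594 and 0.289), against pemetrexed and gemcitabine. After adjustment over all genes none of these passed; the adjusted p was 1 for Hhip and Gli1 against pemetrexed, and 0.879 and 0.225 against gemcitabine. Gli2 was higher with each drug alone (1.56 with pemetrexed, 1.19 with gemcitabine).

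Hes1, Hes5 and Notch1, genes of the Notch pathway picked after their values were seen, were also read. Notch receptors keep neural progenitors undifferentiated by inducing the Hes repressors. Hes1 read 5.06 and 4.93 in untreated and 7.60, 6.36 and 7.61 in combination tumors, with no overlap (difference 2.19, SE 0.57, limma adjusted p 0.263). It differed by 0.45 with pemetrexed and 0.09 with gemcitabine alone. Hes5 (6.26 and 6.04, then 7.13, 7.23 and 9.25) differed by 1.72 (SE 0.96) and Notch1 by 1.30 (SE 0.78). With the brain score as a covariate these were 2.48, 2.48 and 1.94 for Hes1, Hes5 and Notch1. They belong to a list of 19 neural stem cell genes, of which 6 lay above and 2 below; Sox2, in the same list, went the other way (9.18 and 9.23, then 6.20, 8.46 and 8.68; difference -1.42, SE 1.68). The list's means were higher for 11 members and lower for 8, and no member passed. Its median was 0.22, and 0.02 to 0.14 when any 1 array was left out, the lowest without combination replicate 2.

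**Figure D4:**
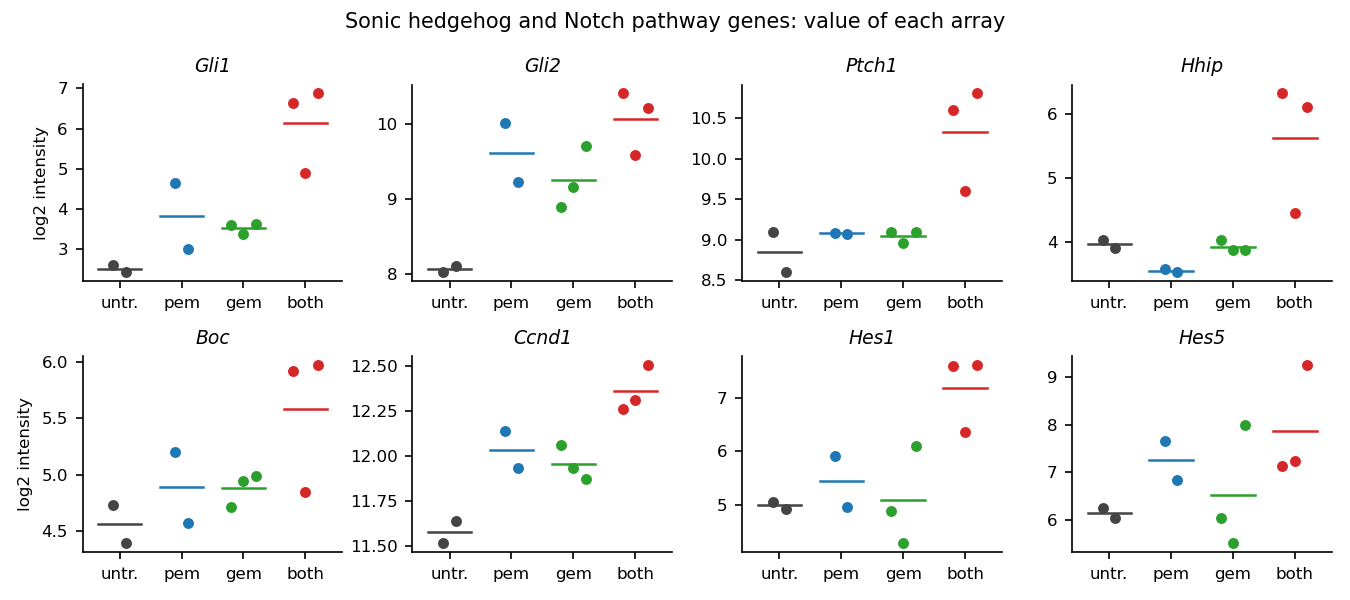
Log2 intensity of 6 sonic hedgehog pathway genes and of Hes1 and Hes5 on each of the 10 mmm tumor arrays, by treatment; lines are group means and each panel has its own axis. All 3 combination tumors are above both untreated tumors in every panel. The 6 hedgehog genes shown are the 6 of 13 measured list members with that separation, so it follows from the choice of panels. Hes1 and Hes5 were also picked after their values were seen. The single-drug tumors lie near the untreated ones for Ptch1 and Hhip.

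Of 42 measured genes of DNA replication, 39 had a higher mean in combination than in untreated tumors and 3 a lower one. Of these genes, which include those of the helicase, clamp loader and polymerases, 34 lay above both untreated tumors in all combination tumors and 1 below. The median difference was 0.46, 13 had an unadjusted p under 0.05, all higher, and none passed the adjusted threshold. Mcm6, a subunit of the replicative helicase, read 9.49 and 9.57 in untreated and 10.54, 9.89 and 10.39 in combination tumors (0.74, SE 0.23, limma adjusted p 0.403). Rfc1, the large subunit of the clamp loader, differed by 0.78 (SE 0.22, limma adjusted p 0.33), and Pola2 of the polymerase alpha complex by 0.86 (SE 0.31). The list median was 0.46 with pemetrexed and 0.36 with gemcitabine alone, and 0.22 with the brain score as a covariate.

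DNA repair and mitosis genes had similar values. Of 24 repair and checkpoint genes 20 lay above and none below (7 higher at an unadjusted p under 0.05), with a median of 0.56 (0.51 with pemetrexed, 0.55 with gemcitabine, 0.26 with the brain score as a covariate). Fanci, of the Fanconi complex that repairs crosslinks, differed by 0.94 (SE 0.41), Clspn, which helps activate the checkpoint kinase Chk1, by 0.83 (SE 0.36), and Brca2 by 0.81 (SE 0.29). Of 37 mitosis genes 25 lay above and none below (5 higher at an unadjusted p under 0.05), with a median of 0.38 (0.50, 0.55 and 0.10 by the same measures). Without combination replicate 1 the medians were 0.37 for repair and 0.20 for mitosis. Kif23, a kinesin of the midbody, read 4.11 and 4.19 in untreated and 5.59, 5.13 and 5.41 in combination tumors (1.23, SE 0.34, limma adjusted p 0.315), and Mki67, the proliferation marker, differed by 0.77 (SE 0.33). No member of either list passed. The untreated readings of Kif23 are below the median of an array, so the size of its rise depends on the low end. The brain score was lower in all combination tumors than in both untreated tumors, and its part in these values was not tested beyond the covariate.

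Genes that take up, activate or are inhibited by the drugs did not pass the threshold in either list. Of 12 antifolate genes 6 lay above and none below both untreated tumors (median 0.23). Slc19a1, the reduced folate carrier that brings pemetrexed into cells, read 7.57 and 7.72 in untreated and 8.66, 8.19 and 8.11 in combination tumors (0.68, SE 0.23, limma adjusted p 0.478). Tyms, the thymidylate synthase that pemetrexed inhibits, read 8.81 and 9.01 in untreated and 9.80, 9.48 and 9.24 in combination tumors (0.59, SE 0.37). Both were separate between the groups. Gart, the purine enzyme also inhibited by pemetrexed, differed by 0.46 (SE 0.29), and Fpgs and Ggh, which add and remove the glutamates that hold antifolates in cells, by 0.15 and 0.07.

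Of 16 gemcitabine genes 4 lay above and 2 below, with a median of -0.01. Tk1, the S-phase thymidine kinase of the salvage pathway, read 6.22 and 6.72 in untreated and 8.45, 7.31 and 7.79 in combination tumors (1.38, SE 0.44, limma adjusted p 0.425). Rrm1 and Rrm2, the ribonucleotide reductase subunits, differed by 0.49 (SE 0.29) and 0.34 (SE 0.39), and Slc29a1, which carries gemcitabine into cells, by 0.48 (SE 0.30). Dck, the kinase that activates gemcitabine, differed by -0.06. Of 15 purine and pyrimidine synthesis genes 6 lay above and none below (median 0.29, 0.06 with the brain score as a covariate, and 0.12 without combination replicate 1).

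No gene of the stress and death programs passed the threshold. Of 24 p53 target genes, in tumors labelled Trp53-/-, 6 lay above and 3 below (median -0.01) and none had an unadjusted p under 0.05. Cdkn1a, the cell cycle inhibitor p21, read 8.09 and 8.44 in untreated and 8.41, 9.34 and 6.98 in combination tumors (-0.03, SE 0.67). Eda2r, a death receptor of the same list, differed by 1.35 (SE 0.71). Of 20 apoptosis genes 5 lay above and none below (median 0.14), with Bcl2, which blocks cell death, at 0.77 (SE 0.41). Medians were 0.22 for 31 MYC target and ribosome biogenesis genes (13 above, 1 below), 0.09 for 21 stress response genes (6 above, 2 below) and 0.11 for 16 cholesterol synthesis genes (0 above, 1 below). Without combination replicate 1 the MYC target median was 0.11. Of 19 hypoxia genes 7 lay above and 1 below; their median was 0.22, but 0.0025 without combination replicate 1 and 0.44 without replicate 3. Egln3, an oxygen-sensing hydroxylase, read 4.51 and 5.42 in untreated and 9.52, 5.72 and 7.98 in combination tumors (2.78, SE 1.18, limma adjusted p 0.586).

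Differentiation genes of the granule lineage were lower. Of 16 members 9 lay below both untreated tumors in all combination tumors and none above (median -0.64, -0.39 with the brain score as a covariate, and -0.33 without combination replicate 1), and none passed. Stmn2, a neuronal tubulin regulator that normal neurons also express, differed by -2.00 (SE 1.12), and by 0.37 with the covariate. Cntn2, an adhesion molecule of young granule neurons, read 7.67 and 7.38 in untreated and 4.99, 7.27 and 6.59 in combination tumors (-1.24, SE 0.51), with -1.25 under the covariate. In the pair of nearly equal score, however, it read 7.38 in untreated replicate 2 and 7.27 in combination replicate 2. Of 14 genes known for Group 3 medulloblastoma 1 lay above and 3 below. The median was -0.05 over all 14. Once dim genes (mean under 5) were left out, 5 genes remained, and their median of -1.15 is the value of 1 gene, Eomes. Otx2 and Eomes, transcription factors of this list, differed by -1.33 (SE 0.82) and -1.15 (SE 0.65). Otx2 overlapped between the groups (6.72 and 4.17 in untreated, 4.37, 4.60 and 3.39 in combination tumors), while Eomes did not. The Otx2 difference was -0.05 without untreated replicate 1 and -2.60 without untreated replicate 2. Npr3, a natriuretic peptide receptor of the same list, read 8.07 and 8.28 in untreated and 6.65, 7.29 and 5.0 in combination tumors (-1.86, SE 0.78, limma adjusted p 0.575). With the single drugs Npr3 differed by -0.15 for pemetrexed and 0.14 for gemcitabine.

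Olig2, a transcription factor of oligodendrocyte progenitors that brain tumor cells can also express, read 11.40 and 11.32 in untreated and 8.43, 10.19 and 8.87 in combination tumors (-2.20, SE 1.34, limma adjusted p 0.721). It is 1 of 6 progenitor markers, of which 4 lay below and none above (median -1.18). With the brain score as a covariate Olig2 differed by -2.67 and the list median was -0.28. In the pair of nearly equal score Olig2 read 11.32 in untreated replicate 2 and 10.19 in combination replicate 2.

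Median differences of immune and vessel markers were smaller than those of neural ones. Of 23 microglia and macrophage markers 3 lay below and none above (median -0.33; summed intensity 7341 to 7953 in untreated and 3587 to 9158 in combination tumors). That median was -0.03 without combination replicate 3, and 0.19 with stroma markers as a covariate, a list mean that includes these markers. Lymphocyte markers averaged 3.87 to 3.91 in untreated and 3.84 to 3.97 in combination tumors, while neurosphere arrays averaged 3.73 to 3.87. Of 16 endothelial markers 7 lay below and 1 above (median -0.30, or -0.17 without untreated replicate 2). Slco1a4, a transporter of the blood-brain barrier, read 5.29 and 5.48 in untreated and 4.18, 4.24 and 4.31 in combination tumors (-1.14, SE 0.34, limma adjusted p 0.35), and Sox17, an endothelial transcription factor, differed by -0.79 (SE 0.25). Of 16 pericyte, fibroblast and matrix genes 4 lay below and none above (median -0.11), and Dcn, a collagen-binding proteoglycan, differed by -2.03 (SE 0.74). Of 20 interferon response genes 2 lay below and 1 above; the median was -0.36, -0.15 without combination replicate 1, and 0.35 with the brain score as a covariate, so its sign turned. Of 19 cytokine and NF-kB genes none lay above or below (median 0.23), of 11 ependymal and choroid plexus genes 1 lay above and 1 below (0.14), and of 10 neutrophil genes 3 lay below (-0.09).

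Alas2, the first enzyme of heme synthesis in red cell precursors, came close to the threshold. It read 4.34 and 4.73 in untreated and 5.55, 5.98 and 5.39 in combination tumors, without overlap (1.10, SE 0.22, limma adjusted p 0.0714). Hba-a1, an alpha globin gene with a near-identical copy that the probe set may also read, read 12.50 and 12.42 in untreated and 12.67, 12.93 and 12.97 in combination tumors (0.39, SE 0.50). With pemetrexed alone Alas2 differed by -0.15 and Hba-a1 by -1.97, and with gemcitabine alone by 0.21 and -0.58. Combination minus pemetrexed was 1.25 for Alas2 (limma adjusted p 0.078). Both transcripts are abundant in immature red cells; the amount of blood in each tumor was not tested.

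Immediate early genes, which neurons and other cells switch on within minutes of a stimulus, were highest in combination replicate 2. Of 16 members 7 lay above both untreated tumors in all combination tumors and none below, and none had an unadjusted p under 0.05. The mean of the list was 5.42 in both untreated tumors and 5.58, 7.03 and 5.46 in combination tumors. Fos read 5.71 and 4.90 in untreated and 5.67, 8.44 and 5.61 in combination tumors (1.27, SE 0.77), and Arc 5.04 and 4.74, then 4.45, 8.35 and 4.16. Of the 3 combination tumors only replicate 2 was high for both. The list median was 0.64, and 0.14 without that replicate. In the same tumor the inflammatory genes Ptgs2 (9.40) and Cxcl1 (6.89) were also far above combination replicates 1 and 3 (4.06 and 4.08 for Ptgs2, 3.76 and 3.76 for Cxcl1).

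**Figure D5:**
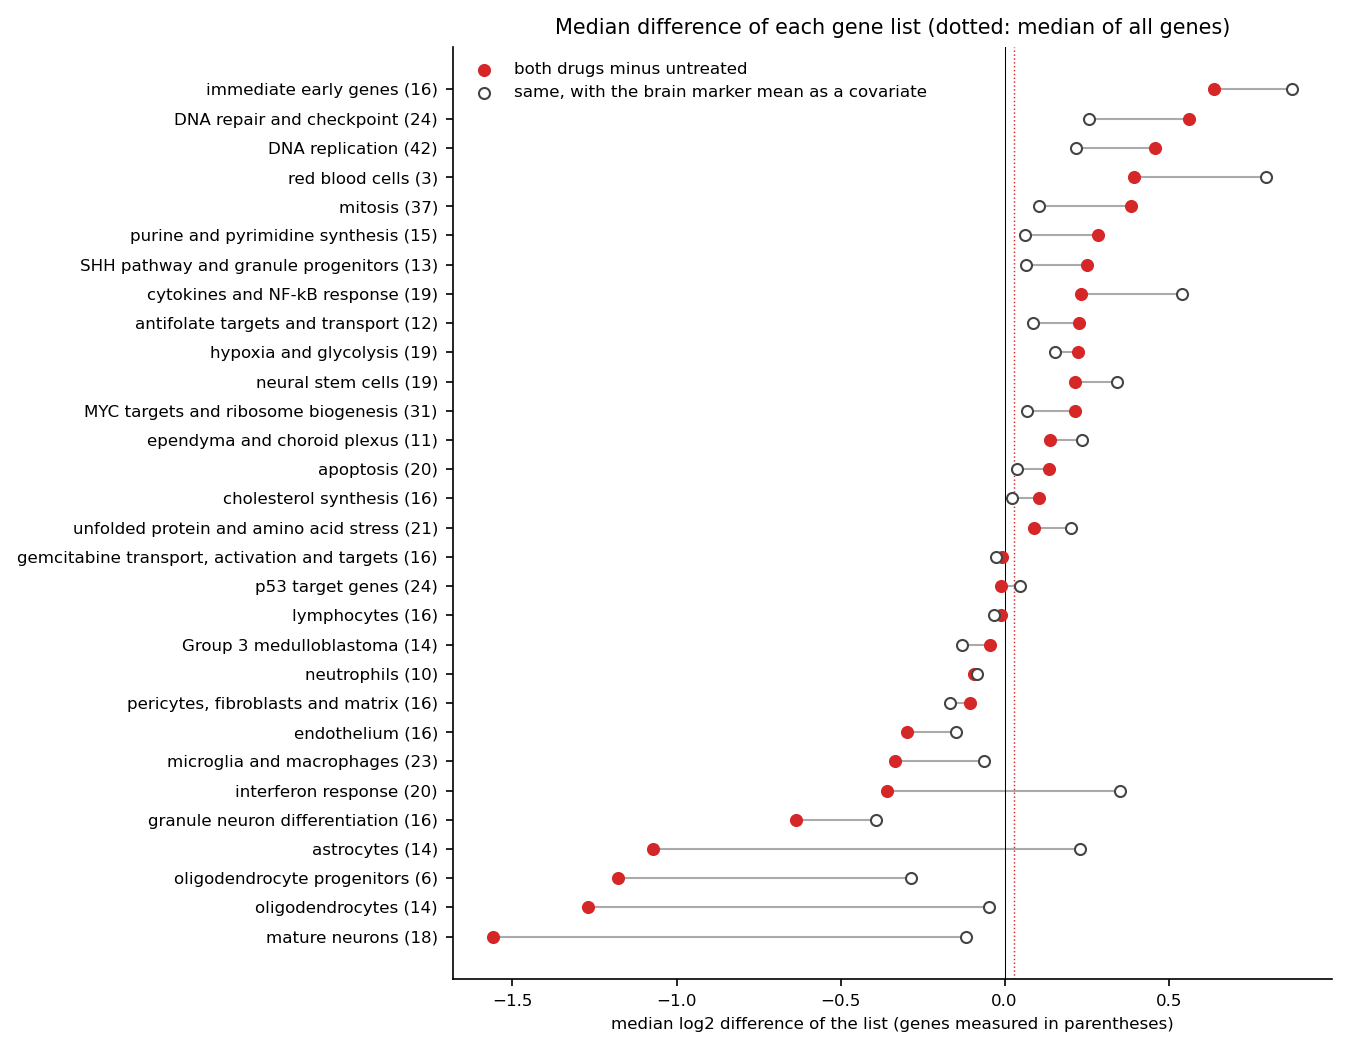
Median log2 difference of each gene list between combination and untreated tumors (filled points, x axis), and the same with the brain score as a covariate in the 10 mmm tumors (open points); the number of genes measured is in parentheses. The lists of mature neurons (-1.56), oligodendrocytes (-1.27) and oligodendrocyte progenitors (-1.18) lie farthest to the left. Neuron, oligodendrocyte and astrocyte lists make up the covariate, so their open points near 0 follow from how it is built; DNA repair goes from 0.56 to 0.26 and replication from 0.46 to 0.22.

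Set directly against each single drug, the combination gave no called gene. Against pemetrexed 0 of 17097 genes passed (0%; 427 had an unadjusted limma p under 0.05, and the smallest adjusted p was 0.0505). Against gemcitabine 0 passed (0%; 898 unadjusted, smallest adjusted p 0.0769), and for additivity, whether the difference with both drugs departs from the sum of the single ones, 0 passed (0%; 849 unadjusted, smallest adjusted p 0.594). These tests do not show that the treatments act alike. Against pemetrexed the smallest p belonged to Ifi44l, an interferon-induced gene, which read 3.14 and 3.28 with pemetrexed and 5.01, 6.39 and 4.81 with both drugs (difference 2.19, SE 0.34), beside 4.80 and 4.65 untreated. Tshr, the thyrotropin receptor, read 4.83 and 6.39 with pemetrexed and 3.94, 3.90 and 4.06 with both drugs (-1.64, SE 0.27, limma adjusted p 0.0558).

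Against gemcitabine the smallest p belonged to Pla2g4e (-0.91, SE 0.15, limma adjusted p 0.0769), followed by Scnn1a, a subunit of the epithelial sodium channel, and Plxdc1, a receptor-like protein of tumor endothelium. Plxdc1 read 6.90, 7.33 and 5.30 with gemcitabine and 4.15, 4.49 and 5.06 with both drugs (-1.94, SE 0.34, limma adjusted p 0.0769), beside 4.46 and 4.76 untreated. Scnn1a differed by -0.68 (SE 0.12). Neither gene overlapped between gemcitabine and combination tumors. The direct tests share no untreated tumor with the main comparison, but they use the same 3 combination tumors.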

How the data were processed

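Whole-tumor RNA was measured on Affymetrix HT MG-430 PM mouse arrays. Per the labels' protocols, RNA was extracted with Trizol and amplified and labelled with NuGEN kits. The log2 values are those the authors deposited; RMA (version not given in the sources used here) and Partek 6.6 are named in the submitters' processing notes. Any adjustment between title codes is not given in the sources used here. Of 45141 probe sets, 104 controls and those with no or several symbols were left out of the gene table; for 7180 genes with several probe sets the brightest was taken.

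limma 3.58.1 (R 4.3.3) fitted 1 mean per group, 9 in all, to the 26 arrays together (17 residual degrees of freedom), and p values were adjusted by Benjamini-Hochberg over 17097 genes at 0.05. Every p value comes from limma. Few arrays limit the precision. Lists (621 distinct genes, 540 measured) are described by counts and medians, with no test; the replication-dependent histones listed were not analysed here. The comparison, its lists and its alternatives were chosen with earlier results of these data known. Trp53, Atic, Cda and Ccnb1 are not reported here. Named genes were the largest called changes per direction, gene class and list (the 2 largest per list where none passed), drug genes, and Myc, Mycn and Cdkn2c, without predicted genes; others in the text (the further hedgehog, Notch, replication, repair, vessel and inflammatory genes, Cdkn1a, Cntn2, Sox2, Ifi44l, Tshr, Scnn1a and Plxdc1) were picked after their values were seen. The pipeline was tested on simulated data with 1 SD per gene in all 26 arrays. That test cannot check calls for genes whose spread differs between the title codes. Alternatives changed the arrays fitted, array weights, normalization, dim genes, variance model, probe set rule, and covariates for brain or stroma markers. Plots used matplotlib 3.10.9 under Python 3.11.15.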

Additional observations from a re-analysis of the deposited data

Results flagged for a closer look

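Among 16139 probe sets with no gene symbol or with several, which the comparison by gene does not use, 11 passed a limma adjusted p under 0.05 over all probe sets, 7 higher and 4 lower in combination tumors. None was assigned to a gene here, and these signals lie in data that no comparison by gene reads.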

How the results depend on the processing

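All values here count genes called at a limma adjusted p under 0.05, beside 9 rises and 4 falls as reported. Rises and falls were 3 and 0 with only the 10 mmm tumors (0 of the 13 reported calls among them), 0 and 0 with only the arrays compared, without dim genes (mean under 5), and with brain or stroma markers as covariates, 23 and 8 with array weights (4 of the 13), and 2 and 0 with quantile normalization (0 of the 13). Trended, robust variances gave 14 calls, all 13 reported ones among them, and the mean of probe sets gave 10 calls (8 of the 13). Leaving out 1 array gave 0 to 26 rises and 0 to 17 falls. Of the alternatives chosen after seeing the data, leaving out the mmm neurospheres gave 4 and 2, a covariate of neuron and oligodendrocyte markers alone 0 and 0, and all probe sets 18 and 13. The 10 mmm tumors less gemcitabine replicate 3 gave 8 calls, 5 of them rises and none among the 13. Against pemetrexed the count was 2 with trended, robust variances and 0 to 5 with 1 array left out. Against gemcitabine it was 0 to 15 with 1 array left out, 1 without the mmm neurospheres and 10 without gemcitabine replicate 3; for additivity it was 0 to 5 and, without that replicate, 1. The cause of these changes was not tested. The 13 called genes kept their direction in all 214 values from these alternatives, 170 of which missed the threshold. Many of these values could not change direction. The groups did not overlap for any of the 13, so leaving out 1 array cannot turn the sign. Changing only the other arrays fitted, the dim genes or the variance model keeps the same difference of means. Only covariates, array weights, normalization and the mean of probe sets could have turned it. Of 1432 values for the 85 uncalled genes set by the naming rule, 48 changed sign and 1 passed. Of 52 further genes that were looked at after their values were seen, 8 passed under at least 1 alternative, Gli2, Ccnd1, Mfap2 and Car10 among them. No paired analysis was possible because the labels give no replicate numbers.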

Other observations

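Some large differences missed the threshold and belong to no list; they were picked after their values were seen. Mfap2, a protein of the elastic microfibrils around cells, read 5.74 and 6.14 in untreated and 10.35, 8.91 and 10.02 in combination tumors (difference 3.82, SE 0.89, limma adjusted p 0.185). Loxl1, which crosslinks elastin, read 4.37 and 5.23 in untreated and 8.40, 6.68 and 7.73 in combination tumors (2.80, SE 0.66, limma adjusted p 0.192). Both are in the class of genes brighter in tumor tissue than in culture, which had a negative median, and neither overlapped between the groups. With pemetrexed and gemcitabine alone Mfap2 differed by 2.51 and 2.64, and Loxl1 by 1.36 and 1.0.

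Tec, a kinase related to Btk, read 3.61 and 3.64 in untreated and 7.06, 5.42 and 6.61 in combination tumors (2.74, SE 0.65, limma adjusted p 0.192). Car10, a carbonic anhydrase relative found in brain, read 6.69 and 5.74 in untreated and 3.21, 3.89 and 4.55 in combination tumors (-2.33, SE 0.45, limma adjusted p 0.0654). With the brain score as a covariate Tec differed by 2.97 and Car10 by -1.72. The untreated readings of Tec and the combination readings of Car10 are below the median of an array, so both sizes depend on the low end.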
